A study of Mus musculus with 16 samples.

Results

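Regulatory T (Treg) cells that lacked Atg7 and came from mice given rapamycin were compared here with Treg cells from untreated control mice. The comparison takes 8 of the 16 arrays of the series, 4 from each group, and every gene whose probe set carries a single gene symbol, with the brightest probe set standing for the gene. That gave 22180 genes, of which 16760 were bright enough to test. Controls were Atg7+/- (Atg7+/flFoxp3-Cre) mice and keep 1 intact copy of Atg7; the other genotype was Atg7-/- (Atg7fl/flFoxp3-Cre). Both genotypes are C57BL/6 and both carry Cre driven with Foxp3, so there was no group without Cre and the deletion falls in cells that have expressed Foxp3. Rapamycin was injected into the abdomen at 4 mg per kg on each of 5 days, and the controls of this comparison received none. CD4+ cells positive for a Foxp3-YFP reporter were then sorted from spleen and lymph nodes and stimulated for 4 h through CD3 and CD28 before RNA was taken. Ages, and whether the 4 replicates of a group were separate mice, are not given in the labels, so the p-values cover no more than the spread among these arrays.

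Treg cells are CD4+ T cells that restrain other immune cells, and Foxp3 is the transcription factor that defines them. Atg7 is the E1-like enzyme that starts the conjugation reactions of autophagy, by which a cell encloses its own contents and passes them to the lysosome. Rapamycin inhibits mTOR complex 1, a kinase that drives protein synthesis, glycolysis and growth and that holds autophagy back when nutrients are plentiful. The comparison therefore asks which of the differences seen without Atg7 are back at the untreated control level after rapamycin, which pass it on the other side, and which persist. It differs in genotype and in treatment at once, and each of its differences is, by arithmetic, the untreated genotype difference plus the rapamycin effect in Atg7-/- cells. These 3 values share arrays, and they are therefore given side by side and not correlated.

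The arrays correlated at 0.977 to 0.9842 between the groups compared, and at 0.9801 to 0.9939 within the 4 groups of the series. Replicate 3 of the rapamycin Atg7-/- group stood apart from its group. It lay at -29.83 on the second principal component, which held 14.57% of the variance, against -12.88 to -7.567 for the other arrays of its group. Arrays deviated from their group mean by a root mean square of up to 0.2422 in the rapamycin Atg7-/- group and 0.1564 in untreated controls. Lyz2, a macrophage and neutrophil lysozyme, ranged from 4.45 on replicate 1 to 7.94 on replicate 3 of that group, against 5.86 to 6.23 in controls. The mean log2 signal over 11 macrophage and monocyte markers was 4.76 to 5.28 on the rapamycin Atg7-/- arrays and 5.02 to 5.11 on the control arrays, and 1 of those markers was called, lower. Of 9 Treg and CD4 T cell markers none was called higher and 2 were called lower, and over 7 B cell markers the mean was 4.19 to 4.55 against 4.49 to 4.54. Other marker means also spread more widely on the rapamycin Atg7-/- arrays than on the control arrays. Over 12 conventional T cell markers the mean was 8.11 to 8.83 against 8.54 to 8.65. For 9 CD8 T and NK cell markers it was 4.77 to 5.3 against 5 to 5.18, and for 10 neutrophil markers 3.97 to 4.74 against 4.1 to 4.42. The part of other cells in any result below was not tested, and in bulk RNA fewer cells of a type and less RNA per cell cannot be told apart. Results that rest on replicate 3 are given with and without it. Below, R1 to R4 name the rapamycin Atg7-/- arrays and C1 to C4 the untreated control arrays where a call was lost on leaving out 1 of these 8, with the highest adjusted p then reached.

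Atg7 itself read 6.73, 6.59, 6.02 and 6.59 on the rapamycin Atg7-/- arrays and 6.74, 6.65, 6.65 and 6.59 in untreated controls. The ranges overlapped and the difference was not called (log2 difference -0.18, SE 0.134, adjusted p = 0.397). Which part of the transcript the probe set covers is not given in the sources used here, so its level does not check the deletion. Foxp3 read 11.07, 11.02, 10.84 and 11.05 against 11.24, 11.32, 11.24 and 11.24. All 4 rapamycin Atg7-/- arrays lay below the 4 control arrays, but the difference missed the threshold (-0.26, SE 0.101, adjusted p = 0.0789). Il2ra, the high-affinity interleukin-2 receptor chain that Treg cells carry, was at 12.06 ± 0.0667 (SD, n = 4) against 12.02 ± 0.0407 (SD, n = 4). Myc, a growth regulator induced on T cell activation, was not called either (0.13, SE 0.0908, adjusted p = 0.341).

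In all, 2946 of 16760 genes (17.6%) were called between the groups at an adjusted p under 0.05, 1511 higher (9.02%) and 1435 lower (8.56%) in rapamycin Atg7-/- cells. The change was at least 2-fold for 55 of the higher and 76 of the lower genes. Without replicate 3 of the rapamycin Atg7-/- group the count was 2934, with 1386 higher and 1548 lower, and 2402 genes were called both ways. The median difference over all genes tested was -0.0202 on the log2 scale. As a background of genes that T cells are not known for, 293 odorant, taste and vomeronasal receptor genes passed the filter and 18.4% of them were called, 30 higher and 24 lower. That share is near the 17.6% over all genes, so sizes and array values are given beside calls. The 95th percentile of the size of their difference was 0.913 on the log2 scale, and 134 of the 2573 called genes outside the special name classes went beyond it. MicroRNA genes were called at 24% (34 higher and 29 lower of 262), and small nuclear and nucleolar RNA genes at 18.6% (3 higher and 13 lower of 86).

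Among the genes that fell most were an inhibitory receptor, a phosphodiesterase, the transcription factors Epas1 and Klf4 and the heat shock gene Hspa1a, which is described with Hspa1b. Klrg1, an inhibitory receptor of terminally differentiated effector T cells and Treg cells, read 4.69, 5.51, 6.63 and 5.63 in rapamycin Atg7-/- cells and 7.35, 7.91, 7.89 and 7.81 in controls. No array of one group reached the other, and Klrg1 was 4.36-fold lower (log2 difference -2.13, SE 0.26, adjusted p = 4.75e-05). Pde2a, a phosphodiesterase that degrades cyclic nucleotides, read 5.66, 5.15, 6.06 and 5.43 against 7.49, 7.51, 7.56 and 7.39. It was 3.76-fold lower (-1.91, SE 0.162, adjusted p = 2.91e-06). Epas1, the hypoxia-inducible factor HIF-2alpha, fell by 1.92 on the log2 scale, and Abcb1a, a drug efflux pump, fell by 1.90. Ramp3, which modulates calcitonin-family receptors, fell by 1.74, the tyrosine phosphatase Ptpn13 by 1.73, the unconventional myosin Myo1d by 1.67, the transcription factor Klf4 by 1.61 and the matrix metalloproteinase Mmp10 by 1.60. Adjusted p for those 7 genes ran from 3.04e-06 for Abcb1a to 0.000991 for Ramp3. Of those 7, Abcb1a and Ptpn13 were already lower in untreated Atg7-/- cells (-0.81, adjusted p = 0.0114, and -1.10, adjusted p = 0.00543). Pde2a was also called lower in untreated Atg7-/- cells, so its fall was not new after rapamycin.

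Those that rose most included the matrix proteins Itih5 and Hapln1 and the related ubiquitin ligase adaptors Klhdc2 and Klhdc1. Itih5, a hyaluronan-binding inhibitor family protein, read 6.37, 7.39, 7.31 and 7.07 in rapamycin Atg7-/- cells and 5.10, 4.85, 5.33 and 4.99 in controls. The groups did not overlap, and Itih5 was 3.91-fold higher (1.97, SE 0.203, adjusted p = 1.17e-05). Hapln1, which links hyaluronan to proteoglycans, was 3.59-fold higher (1.84, SE 0.294, adjusted p = 0.000407), and its value was 1.48 without replicate 3. Klhdc2, a substrate receptor of a ubiquitin ligase, read 9.12, 8.96, 9.10 and 9.02 against 7.86, 7.70, 7.87 and 7.48 (2.50-fold, 1.32, SE 0.0925, adjusted p = 6.65e-07). Klhdc1 rose by 1.32 as well (adjusted p = 3.58e-06). The other genes were Ssxb8 (1.39), cardiac troponin T Tnnt2 (1.33), Fam174c (1.27), Cmss1 (1.26), the endoplasmic reticulum exchange factor Sil1 (1.25) and the replication protein Rpa3 (1.23). All 20 of these genes stayed called without any 1 of the 8 arrays.

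**Figure D1:**
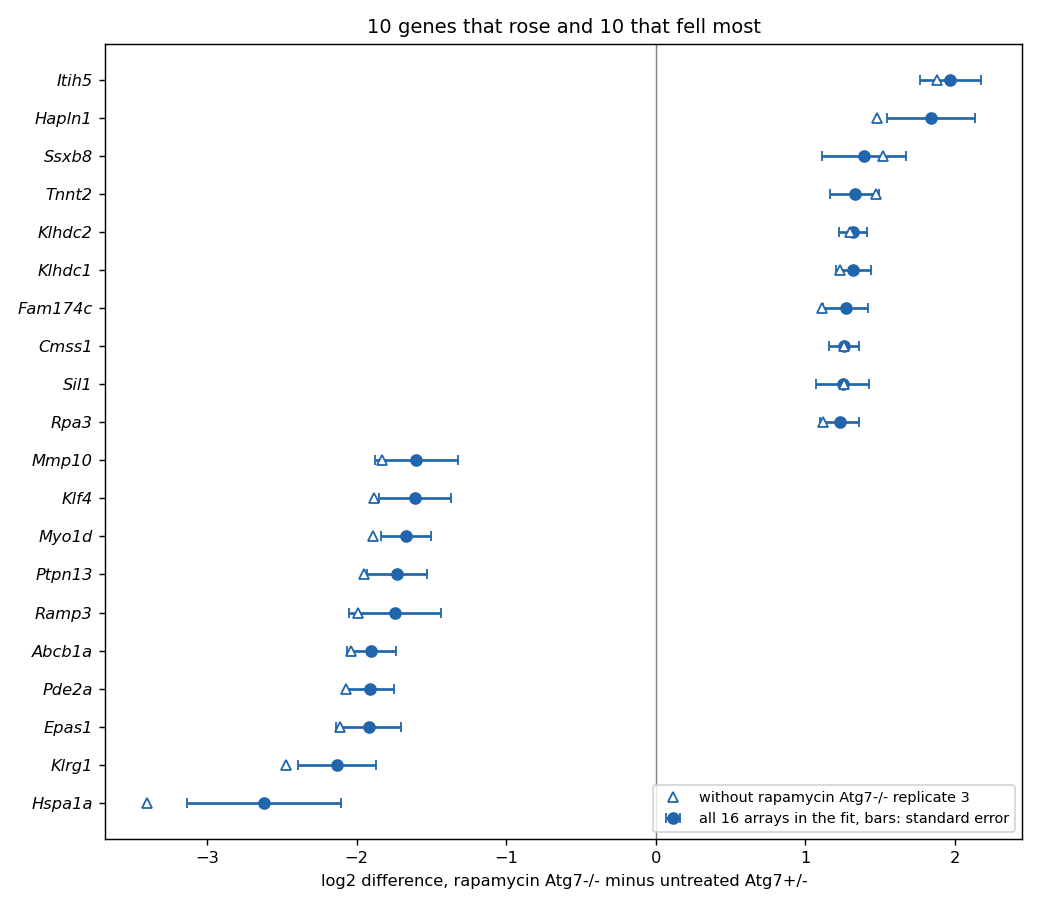
Log2 difference between rapamycin Atg7-/- and untreated Atg7+/- Treg cells (x axis) for the 10 top risers and 10 top fallers, each called and with non-overlapping arrays; circles with bars give the fit to all arrays with its standard error, open triangles the value without replicate 3 of the rapamycin Atg7-/- group. The values run from -2.62 for Hspa1a to 1.97 for Itih5, and Hspa1a moves most without replicate 3, to -3.40.

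To ask what rapamycin brought back, the 527 genes called between the untreated genotypes (3.14% of genes tested; 294 higher and 233 lower in Atg7-/- cells) were sorted by their level after rapamycin. In 207 of them (39.3%) the level was back: the difference from untreated controls was not called, its 90% interval lay within 1.5-fold of no change, and the step from untreated to rapamycin Atg7-/- cells was called toward control. Another 192 (36.4%) were left changed, called in the same direction as before. A further 29 (5.5%) overshot and were called on the other side of the control level. In 70 (13.3%) the level was near control with no called step, and 29 (5.5%) stayed unresolved because the interval was too wide. Without replicate 3 of the rapamycin Atg7-/- group 694 genes entered, and the counts were 272, 217, 46, 126 and 33 in the same order. Of the genes in each class, 188, 174, 27, 55 and 14 kept their class. The entry list also moved with other arrays: 284 to 333 genes entered without 1 of C1 to C4, and 300 and 322 without untreated Atg7-/- replicate 1 or 4. Over those 6 fits 110 to 133 genes were brought back, 98 to 116 left changed and 11 to 17 overshot. These counts describe how the rule sorts genes and carry no test of their own. All classes compare with the same control arrays that defined the genotype difference, so a control value that is low or high by chance makes a gene look changed and then left changed. The untreated Atg7-/- arrays likewise enter both the genotype difference and the step under rapamycin. A value there that is low or high by chance makes a gene look changed and then brought back, so part of the brought back share is built in.

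**Figure D2:**
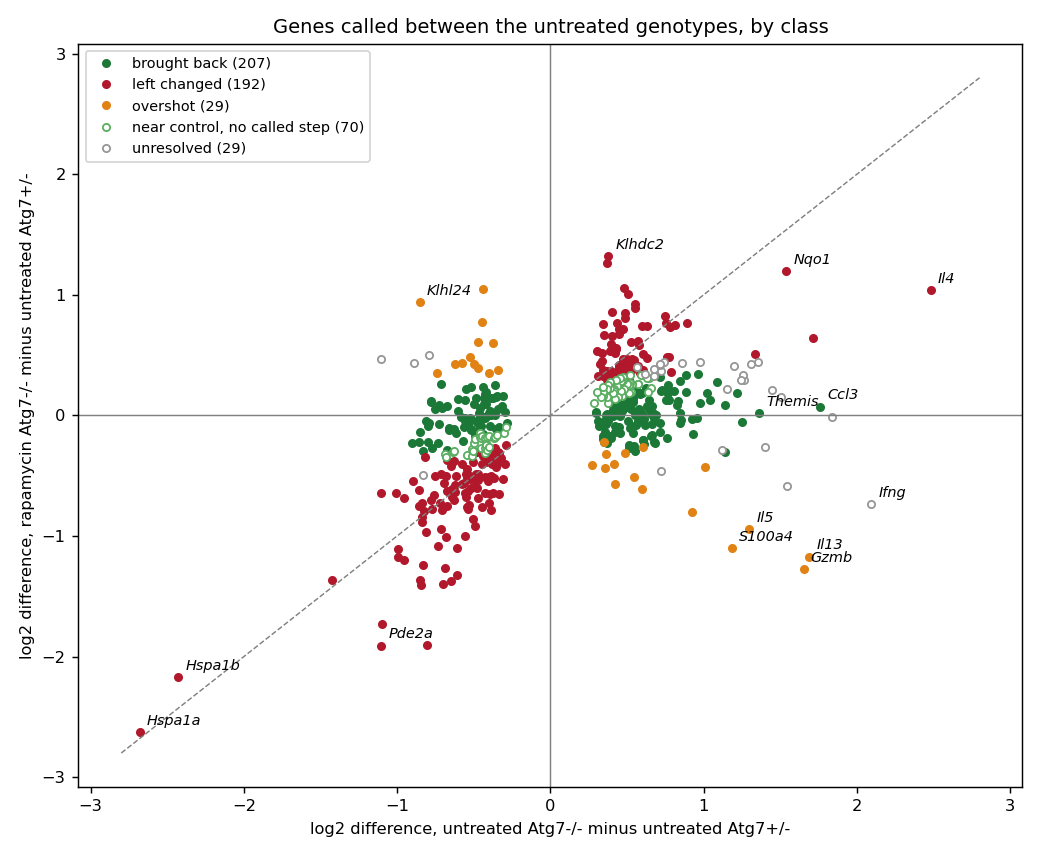
Each point is 1 of the 527 genes called between untreated Atg7-/- and untreated Atg7+/- cells, with that log2 difference on the x axis and the difference of rapamycin Atg7-/- cells from the same untreated controls on the y axis; colours give the 5 classes with their counts. Points on the dashed line have the same difference before and after rapamycin and points on the horizontal line are at the control level; both axes use the same control arrays, so the cloud's slope is no result.

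Among the 16 genes that overshot downward were effector molecules that untreated Atg7-/- cells had held above control. Il13, Il5 and Il4 are neighbouring cytokine genes of type 2 immunity, controlled as one locus in T helper 2 cells, and after rapamycin they parted: Il13 and Il5 were below the untreated control and Il4 was above it. Because the 3 genes share a locus and a known activator family, the GATA factors, their promoter windows are shown with matches to 6-letter GATA motifs in capitals. Windows run from 250 bases before to 50 bases after the annotated start, 5′ to 3′ on the gene's strand, as RefSeq gives them for GRCm38.p6. For Il4, 2 starts were annotated, and the most upstream one was used. They are chr11:53618616-53618915 (minus strand) for Il4, chr11:53634653-53634952 (minus strand) for Il13 and chr11:53720544-53720843 (plus strand) for Il5.
Il4: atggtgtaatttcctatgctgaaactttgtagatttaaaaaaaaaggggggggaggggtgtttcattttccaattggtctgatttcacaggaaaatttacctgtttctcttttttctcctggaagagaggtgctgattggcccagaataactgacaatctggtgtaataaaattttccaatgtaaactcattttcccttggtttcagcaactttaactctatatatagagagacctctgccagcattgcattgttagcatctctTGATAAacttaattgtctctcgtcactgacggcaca
Il13: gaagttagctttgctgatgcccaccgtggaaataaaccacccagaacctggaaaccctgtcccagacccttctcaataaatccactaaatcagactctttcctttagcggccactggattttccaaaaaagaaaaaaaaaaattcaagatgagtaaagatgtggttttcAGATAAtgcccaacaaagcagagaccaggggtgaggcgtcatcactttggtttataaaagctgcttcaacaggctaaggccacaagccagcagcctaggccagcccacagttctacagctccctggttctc
Il5: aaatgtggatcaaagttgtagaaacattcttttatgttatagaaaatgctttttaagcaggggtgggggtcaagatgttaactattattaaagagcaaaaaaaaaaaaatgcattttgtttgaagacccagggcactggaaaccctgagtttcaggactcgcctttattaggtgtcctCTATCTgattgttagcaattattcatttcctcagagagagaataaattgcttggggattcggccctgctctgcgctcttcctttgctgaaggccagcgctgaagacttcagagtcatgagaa
The letters searched on both strands were AGATAA, found in Il13, AGATAG, found in Il5, TGATAA, found in Il4, and TGATAG, found in none of the 3. Each window held 1 match, which lay at bases 14 to 19 after the start of Il4, at -81 to -76 in Il13 and, on the opposite strand, at -72 to -67 in Il5. Of 32851 promoter windows of this length, 29.8% held at least 1 match, so a match sets these genes apart little, and it shows letters and not binding.

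Il13, an interleukin that acts on epithelium and macrophages, read 6.65, 7.35, 8.33 and 6.76 in rapamycin Atg7-/- cells and 8.23, 8.82, 8.40 and 8.33 in untreated controls. Replicate 3 reached the control range and the other arrays of its group lay below it. Il13 was 2.25-fold lower (-1.17, SE 0.30, adjusted p = 0.0118), and 2.87-fold lower without replicate 3. It stood at 10.13 ± 0.303 (SD, n = 4) in untreated Atg7-/- cells and at 6.21 ± 0.514 (SD, n = 4) in rapamycin Atg7+/- cells. Il5, the eosinophil growth factor, read 4.18, 3.77, 4.55 and 4.08 against 4.59, 5.50, 4.93 and 5.32, with no overlap (1.92-fold lower, -0.94, SE 0.24, adjusted p = 0.0113). Untreated Atg7-/- cells had Il5 at 6.38 ± 0.495 (SD, n = 4).

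Il4, the interleukin that drives type 2 helper differentiation, read 6.86, 7.76, 8.05 and 6.87 against 6.11, 6.43, 6.39 and 6.45. Every rapamycin Atg7-/- array exceeded every control array, and Il4 was 2.06-fold higher (1.04, SE 0.253, adjusted p = 0.0085; 0.82, adjusted p = 0.026, without replicate 3). It had been at 8.82 ± 0.454 (SD, n = 4) in untreated Atg7-/- cells, so the step under rapamycin went toward control (-1.44, SE 0.253, adjusted p = 0.000832) without reaching it. In Atg7+/- cells Il4 was at 6.10 ± 0.312 (SD, n = 4) after rapamycin, and the difference between the rapamycin effects in the 2 genotypes was not called (-1.20, adjusted p = 0.609). Il9, another cytokine of type 2 immunity, was not called between the untreated genotypes and was higher here (4.78, 5.80, 6.56 and 5.76 against 4.28 to 4.70; 1.21, SE 0.267, adjusted p = 0.00475). For Il9 rapamycin in Atg7+/- cells gave 0.87 (adjusted p = 0.0374).

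Ifng, the signature cytokine of type 1 immunity, depended on a single array. It read 5.47, 6.53, 8.31 and 6.73 in rapamycin Atg7-/- cells against 7.35, 7.09, 8.02 and 7.54 in controls, and 9.59 ± 0.398 (SD, n = 4) in untreated Atg7-/- cells. Replicate 3 lay above all controls and the other 3 arrays below them. With all arrays the difference was not called (-0.74, SE 0.392, adjusted p = 0.21) and Ifng was unresolved; without replicate 3 it was 2.39-fold lower (-1.25, adjusted p = 0.00532) and overshot. The step from untreated Atg7-/- cells was called with all arrays (-2.83, adjusted p = 0.000117). Il3, a growth factor of myeloid cells, ranged from 5.63 to 8.06, against 6.78 to 7.61 in controls, and stayed unresolved (0.15, SE 0.37, adjusted p = 0.822).

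Gzmb, granzyme B, read 4.70, 6.72, 6.49 and 5.33 after rapamycin in Atg7-/- cells and 6.76, 7.23, 7.27 and 7.06 in untreated controls. The groups did not overlap, though replicate 2 came within 0.04 of the lowest control. Gzmb was 2.42-fold lower (-1.27, SE 0.299, adjusted p = 0.00694) after standing at 8.73 ± 0.149 (SD, n = 4) in untreated Atg7-/- cells. In Atg7+/- cells rapamycin gave -0.55 (adjusted p = 0.24), and the difference of the effects, -2.38, was not called (adjusted p = 0.139). The calcium-binding protein S100a4 (-1.10, adjusted p = 0.00757), the pleckstrin gene Plek (-0.80, adjusted p = 0.0319) and the survival and mitosis protein Birc5 (-0.43, adjusted p = 0.0292) had the same order of groups. For Plek the call was lost without R1, R2, R4, C1 or C3 (adjusted p up to 0.108) and for Birc5 without R1, R2, C2 or C4 (up to 0.0842).

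Overshoot in the other direction, for genes that Atg7 loss had lowered, took 13 genes. Klhl24, an adaptor of a ubiquitin ligase, read 9.01, 9.26, 9.31 and 8.90 against 8.23, 8.21, 8.27 and 7.99. The groups did not overlap, and it was 1.92-fold higher (0.94, SE 0.134, adjusted p = 0.000153) after 7.32 ± 0.295 (SD, n = 4) in untreated Atg7-/- cells. It reached 9.51 ± 0.145 (SD, n = 4) in rapamycin Atg7+/- cells, where rapamycin gave 1.33 (adjusted p = 1.84e-05). Fbxl20, an F-box protein, and the deubiquitinase Usp11 were higher by 0.35 (adjusted p = 0.0175) and 0.43 (adjusted p = 0.04), calls lost without R2 or C4 for Fbxl20 (up to 0.0564) and without R1, R2, R4, C2, C3 or C4 for Usp11 (up to 0.10). Others in this class were Crebrf (1.05), a regulator of a stress transcription factor, Bckdha (0.78), of branched-chain amino acid breakdown, and Rb1cc1 (0.43), the FIP200 scaffold of the ULK1 kinase that initiates autophagy. These 3 were picked after their values were seen.

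**Figure D3:**
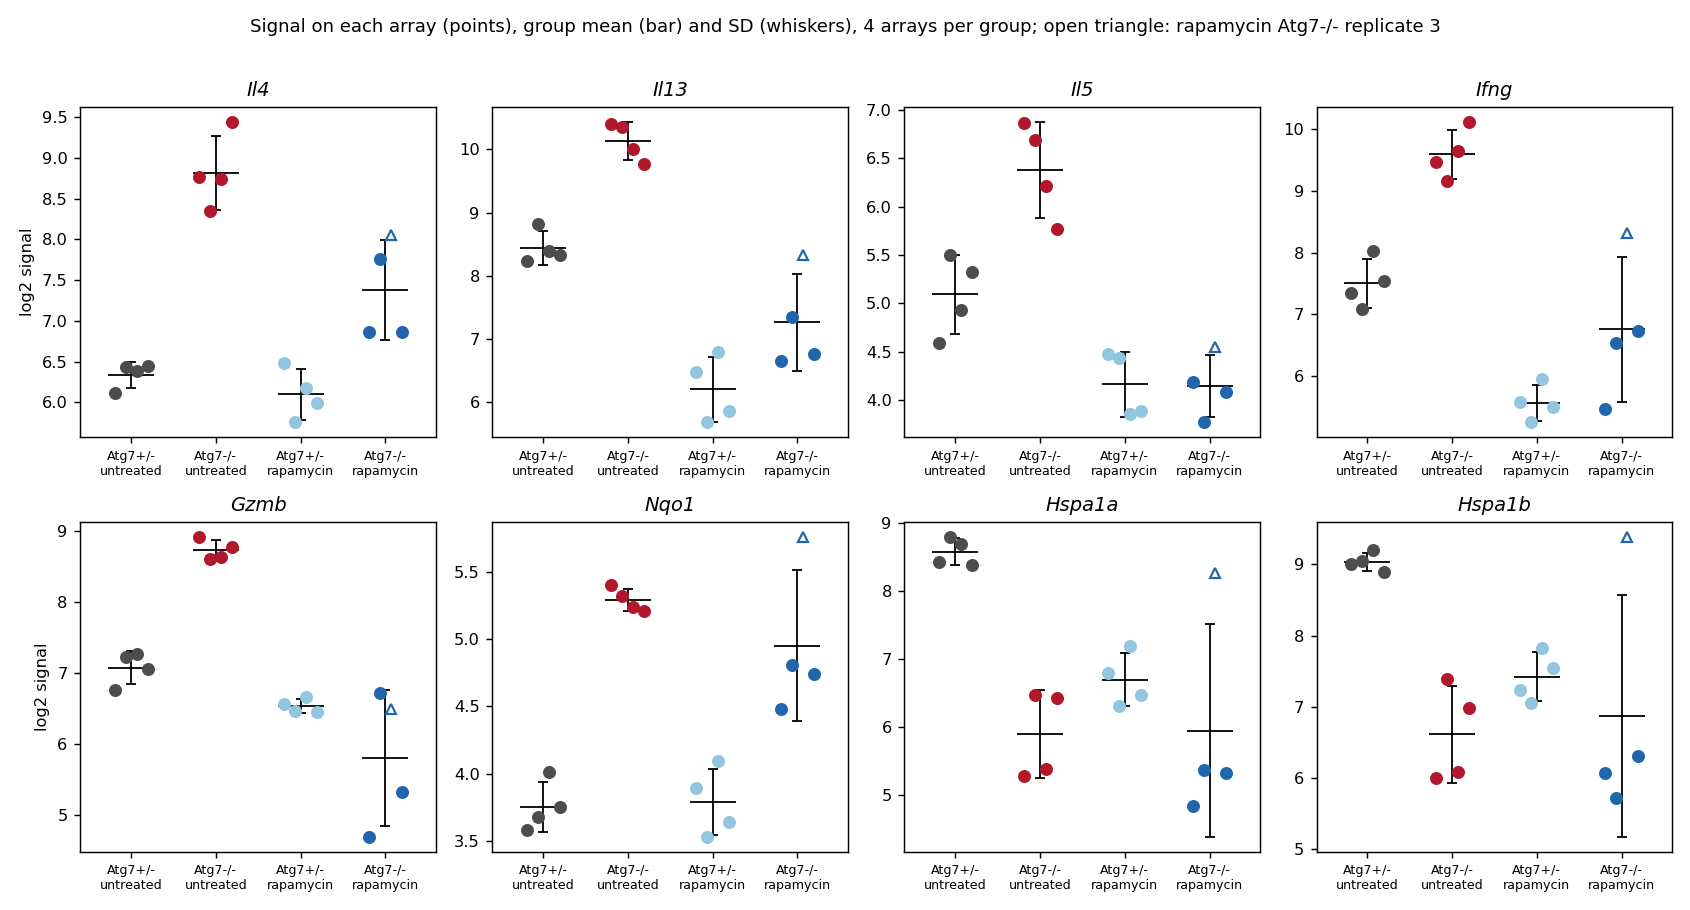
Log2 signal (y axis) of 8 genes on each of the 16 arrays in the 4 groups (x axis), with the group mean as a bar and the SD as whiskers, and replicate 3 of the rapamycin Atg7-/- group as an open triangle. Il4 and Nqo1 stay above the untreated control after rapamycin, Il13, Il5 and Gzmb fall below it, and Ifng, Hspa1a and Hspa1b take different values on the open triangle (8.31, 8.27 and 9.39) than on the other arrays of that group.

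Among genes left changed, the step under rapamycin in Atg7-/- cells was not called for 158 of 192, went further from control for 28 and went toward it for 6. Hspa1a and Hspa1b encode the inducible HSP70 chaperones and lie next to each other in the major histocompatibility complex region. Their promoter windows are shown because the genes moved together and because their sequences are close to identical, so their probe sets may share signal. Capitals mark a match to a pair of inverted GAA units, the element heat shock factor is known to bind, searched as GAANNTTC and TTCNNGAA on both strands. The windows are chr17:34972107-34972406 for Hspa1a and chr17:34959189-34959488 for Hspa1b, both on the minus strand of GRCm38.p6, from RefSeq.
Hspa1a: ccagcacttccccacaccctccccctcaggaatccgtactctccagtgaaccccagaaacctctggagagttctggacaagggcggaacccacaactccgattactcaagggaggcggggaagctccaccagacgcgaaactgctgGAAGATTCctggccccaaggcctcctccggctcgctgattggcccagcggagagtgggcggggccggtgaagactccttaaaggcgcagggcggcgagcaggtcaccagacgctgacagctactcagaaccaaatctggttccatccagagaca
Hspa1b: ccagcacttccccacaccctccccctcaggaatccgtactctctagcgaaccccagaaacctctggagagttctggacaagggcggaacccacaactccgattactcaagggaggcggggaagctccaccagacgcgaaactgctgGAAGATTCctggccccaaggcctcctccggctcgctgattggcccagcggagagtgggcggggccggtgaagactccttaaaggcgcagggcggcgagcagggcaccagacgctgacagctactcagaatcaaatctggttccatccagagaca
These were equal at 296 of 300 positions, with a longest shared run of 201 bases, and each held 1 match, at -104 to -97. Matches were found in 15.1% of the 32851 windows.

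Hspa1a read 4.84, 5.37, 8.27 and 5.33 in rapamycin Atg7-/- cells and 8.43, 8.80, 8.69 and 8.39 in controls. Replicate 3 lay just under the lowest control and the other 3 arrays far below. The gene was 6.17-fold lower (-2.62, SE 0.513, adjusted p = 0.002) with replicate 3 and lay further below control without it (-3.40, adjusted p = 1.46e-06). Hspa1b read 6.06, 5.72, 9.39 and 6.31 against 9.01, 9.05, 9.20 and 8.90, so replicate 3 exceeded all controls. Its difference was -2.17 (SE 0.547, adjusted p = 0.0108), and -3.01 (adjusted p = 4e-06) without replicate 3. Untreated Atg7-/- cells had been at 5.90 ± 0.646 (SD, n = 4) for Hspa1a, and rapamycin in Atg7+/- cells gave -1.88 (adjusted p = 0.0207). Of 21 heat shock genes tested 1 was higher and 4 lower (0 and 5 without replicate 3), beside 9.02% higher and 8.56% lower over all genes. The other named heat shock genes were the co-chaperone Bag3 (-0.71, adjusted p = 0.00109) and Hspa4l (-0.50, adjusted p = 0.0109).

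Nqo1, a quinone reductase induced by the oxidative stress factor Nrf2, stayed high. It read 4.48, 4.81, 5.76 and 4.74 against 3.58, 3.68, 4.01 and 3.75, with no overlap (2.29-fold, 1.19, SE 0.199, adjusted p = 0.000598; 0.92 without replicate 3). Untreated Atg7-/- cells had 5.29 ± 0.0848 (SD, n = 4) and rapamycin Atg7+/- cells 3.79 ± 0.247 (SD, n = 4). Of 22 oxidative stress genes tested, 4 were higher and 2 lower, small counts beside 9.02% higher and 8.56% lower over all genes. The list did not move as one. Between the untreated genotypes 3 of its genes were called, all higher. After rapamycin 1 of them was left changed, 1 brought back and 1 unresolved. The one brought back was Srxn1, at -0.17 (90% interval -0.33 to -0.01) after 0.65. Peroxiredoxin Prdx4 was higher by 0.73 (adjusted p = 0.00116), Gsto1 by 0.47 (adjusted p = 0.0197) and the glutathione synthesis subunit Gclm by 0.38 (adjusted p = 0.0293). The call of Gsto1 was lost without R3, C3 or C4 (up to 0.0668) and that of Gclm without R3, R4, C2 or C3 (up to 0.0957), and without R3 the list had 2 higher and 4 lower. The promoter window of Nqo1, chr8:107403156-107403455 (minus strand, GRCm38.p6, RefSeq), was searched on both strands for TGACNNNGC, an antioxidant response motif, and held no match. At least 1 match was held by 12.4% of the 32851 windows. Sequence more than 250 bases before the start was not searched, so a missing match here does not show that the gene lacks the motif.

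Ptpn13, Vps37b and Rgs2 held their loss. Ptpn13 read 5.14, 6.21, 6.52 and 5.59 against 7.62, 7.63, 7.69 and 7.44, after 6.50 ± 0.177 (SD, n = 4) in untreated Atg7-/- cells. It lay further from control after rapamycin (-0.63 for the step, adjusted p = 0.0347), and rapamycin alone in Atg7+/- cells left it at 7.62 ± 0.0648 (SD, n = 4). Vps37b, of the ESCRT-I sorting complex, was at 8.56 ± 0.503 (SD, n = 4) against 9.92 ± 0.107 (SD, n = 4), 2.57-fold lower (-1.36, SE 0.201, adjusted p = 0.000204). Rgs2, which switches off G proteins, was 2.25-fold lower (-1.17, SE 0.253, adjusted p = 0.00403).

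Some genes moved away from control in both steps. Pdcd1, the PD-1 receptor, read 7.35, 7.52, 7.78 and 7.44 against 8.84, 8.95, 9.07 and 8.83. It fell by 0.70 on the log2 scale between the untreated genotypes and by 0.70 again under rapamycin, and ended 2.64-fold lower (-1.40, SE 0.112, adjusted p = 1.77e-06). Plagl1, a zinc finger factor of the Treg signature, ended 2.11-fold lower (-1.08, SE 0.109, adjusted p = 1.12e-05). Cmss1 rose in both steps (0.37 and 0.89), as did Klhdc2 (0.38 and 0.94). Among the 6 genes that moved toward control without arriving, besides Il4, the lymph node homing receptor Ccr7 ended 1.27-fold lower (-0.34, adjusted p = 0.0475), the chemokine Ccl1 0.36 higher (adjusted p = 0.0392) and the kinetochore gene Nuf2 0.64 higher (adjusted p = 0.0344). None of these 3 calls was firm. Ccr7 lost it without R1, R4 or any 1 of C1 to C4 (up to 0.154), Ccl1 without any 1 array except R2 (up to 0.102) and Nuf2 without R2, R3, R4, C2, C3 or C4 (up to 0.102).

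Of the 207 genes brought back, 130 had been higher and 77 lower in untreated Atg7-/- cells. Those that had been higher included effector and cell division genes. Ccl3, a chemokine for monocytes and T cells, read 7.74, 6.74, 7.70 and 6.89 in rapamycin Atg7-/- cells and 7.41, 6.66, 7.33 and 7.37 in controls, so the ranges overlapped. The difference was 0.07 (SE 0.244, 90% interval -0.35 to 0.50), after 8.95 ± 0.305 (SD, n = 4) in untreated Atg7-/- cells. Rapamycin in Atg7+/- cells took Ccl3 below its own start (-1.26, adjusted p = 0.00288). Themis, which tunes T cell receptor signals, read 5.40, 6.19, 6.51 and 5.77 against 5.92, 5.82, 6.17 and 5.89. It differed by 0.02 (SE 0.183, 90% interval -0.30 to 0.34) after standing higher by 1.36 without rapamycin. Havcr2, the TIM-3 receptor, ended at -0.06 after 1.25 and granzyme A, Gzma, at 0.08 after 1.14. The long noncoding RNA Morrbid ended at -0.30 after 1.14, and its 4 arrays lay between 3.67 and 4.03 against 4.07 to 4.24 in controls, so a gene counted as brought back can still lie apart from control on every array. Without replicate 3 Morrbid was unresolved.

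A share of the cell division genes was higher in untreated Atg7-/- cells, and some fell under rapamycin. Of 53 cell cycle genes tested, 16 were higher and none lower in untreated Atg7-/- cells (background 1.75% higher), and in the step under rapamycin 21 were lower and 1 higher (background 11.1% lower). Both counts use the same untreated Atg7-/- arrays, so opposite directions are no independent sign of a return. In Atg7+/- cells rapamycin raised 2 and lowered 3 of the 53, where it raised 6.03% and lowered 8.11% of all genes. The median of that step was -0.0471 on the log2 scale beside -0.0345 over all genes. Against untreated controls 5 were then higher and 4 lower, and 3 and 3 without replicate 3. With all arrays these counts were near the shares over all genes, 9.02% higher and 8.56% lower. The median difference was 0.08 on the log2 scale beside -0.0202 over all genes. By class, 9 of the 16 were brought back, 5 were unresolved, 1 was left changed and 1 overshot. Cdk1, the mitotic kinase, ended at 0.18 (90% interval -0.20 to 0.56) after 1.02, and Ube2c, Kif15 and Rrm2 ended at 0.28, 0.13 and 0.10. The proliferation marker Mki67 spread from 5.34 to 6.79 against 5.71 to 6.13 in controls and stayed unresolved, as did Top2a and Kif11, the last brought back without replicate 3. Mcm7, of the replicative helicase, was higher (0.59, adjusted p = 7.55e-05) and the phosphatase gene Cdc25a lower (-0.54, adjusted p = 0.00265), and neither was called between the untreated genotypes.

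Genes without a called genotype difference made up most of the genes called between these groups. The lists of related genes below hold genes of both kinds. Between the untreated genotypes, 6 of 24 effector cytokine genes were higher and 2 lower. Of 29 effector Treg genes 8 were higher and 2 lower there, beside 1.75% higher and 1.39% lower over all genes. Most called genes of the effector cytokine and homing receptor lists were lower. Of 24 effector cytokine genes tested 2 were higher and 8 lower (median -0.31), and of 21 chemokine and homing receptor genes 2 were higher and 12 lower (median -0.44). These counts stand beside 9.02% higher and 8.56% lower over all genes. Cxcr3, the receptor for interferon-induced chemokines, read 5.52, 5.56, 5.58 and 5.76 against 6.90, 6.99, 6.81 and 6.53. The groups lay well apart and Cxcr3 was 2.30-fold lower (-1.20, SE 0.123, adjusted p = 1.12e-05). Ccr2, for inflammatory monocyte chemokines, was 2.85-fold lower (-1.51, adjusted p = 0.000751), Cxcr6 2.40-fold (-1.26, adjusted p = 9.41e-05) and Ccr6 1.91-fold (-0.94, adjusted p = 0.0021). In Atg7+/- cells rapamycin gave -0.84 for Cxcr3, -0.99 for Ccr2, -1.07 for Cxcr6 and -1.03 for Ccr6, each called. Of the 16 chemokine ligands 1 was higher and 2 lower, Cxcl2 (-1.38, adjusted p = 0.00194) and Xcl1 (-0.73, adjusted p = 0.0333), and without replicate 3 the counts were 0 and 5. The higher one was Ccl1, and the call of Xcl1 was lost without R2, R4, C1, C3 or C4 (up to 0.108).

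The effector Treg list had 2 members higher and 11 lower of 29 (median -0.27), and 1 and 14 without replicate 3 (median -0.48). Members with values given above include Klrg1, Ccr2, Pdcd1, Gzmb, Cxcr3, S100a4 and Havcr2. Of 14 cytotoxic granule genes none was higher and 3 were lower, namely Gzmb, the death ligand Fasl (-0.76, adjusted p = 0.0252) and the granzyme inhibitor Serpinb9 (-0.50, adjusted p = 0.0393). Fasl lost its call without R1, R4, C2 or C3 (up to 0.0922) and Serpinb9 without R1, R4 or any 1 of C1 to C4 (up to 0.0964). On the Treg signature list 4 of 26 were higher and 7 lower. Ecm1, a secreted matrix protein, read 11.13, 11.01, 11.11 and 10.82 against 10.14, 10.03, 9.99 and 10.03 (1.96-fold higher, 0.97, SE 0.147, adjusted p = 0.000249). Nrp1, neuropilin-1, was 1.83-fold lower (-0.87, adjusted p = 0.000308), and Socs2, a brake on cytokine signals, was 1.87-fold higher (0.90, adjusted p = 0.00645). Of 19 resting T cell genes 4 were higher and 2 lower, and 2 higher and 3 lower without replicate 3. With all arrays they included the interleukin-7 receptor Il7r (0.62, adjusted p = 0.013), the quiescence factor Klf2 (0.41, adjusted p = 0.0342), Satb1 (0.41, adjusted p = 0.0318) and, on the lower side, Ets1 (-0.41, adjusted p = 0.0148). Klf2 lost its call without R1, R2, R3, C2 or C4 (up to 0.121) and Satb1 without R2 or any 1 of C1 to C4 (up to 0.107). Counts of the effector Treg, cytotoxic granule, Treg signature and resting T cell lists stand beside 9.02% higher and 8.56% lower over all genes. Those of the cytotoxic granule and resting T cell lists are small beside these shares.

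More genes of T cell receptor signalling were lower than higher, both at the receptor and among its early targets. Of 29 early response genes 2 were higher and 12 lower, and of 26 genes of proximal signalling 1 was higher and 10 lower, with medians of -0.19 and -0.23. Over all genes 9.02% were higher and 8.56% lower. Fosb, an AP-1 subunit, was 2.58-fold lower (-1.37, SE 0.188, adjusted p = 0.00011). Nfkbie, an NF-kappaB inhibitor that its own pathway induces, read 6.82, 6.67, 7.07 and 7.09 against 7.97, 7.99, 8.03 and 7.88 (2.08-fold lower, -1.05, SE 0.128, adjusted p = 4.47e-05). The costimulatory receptor Cd28 was 1.54-fold lower (-0.62, adjusted p = 0.00227), the kinase Zap70 1.51-fold (-0.60, adjusted p = 0.00841) and the exchange factor Vav1 1.49-fold (-0.57, adjusted p = 0.000536). For Zap70 and Vav1 the untreated genotype difference was 0.14 and 0.01, neither called, and rapamycin in Atg7+/- cells gave -0.99 and -0.73. Of 25 genes of cyclic nucleotide and G protein regulation, none was higher and 7 were lower, among them Pde2a, Rgs2, Rgs14 (-0.47, adjusted p = 0.00168) and the guanylate cyclase subunit Gucy1a1 (-0.65, adjusted p = 0.0458), whose call was lost without R1, R3, R4, C1, C2 or C3 (up to 0.137).

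**Figure D4:**
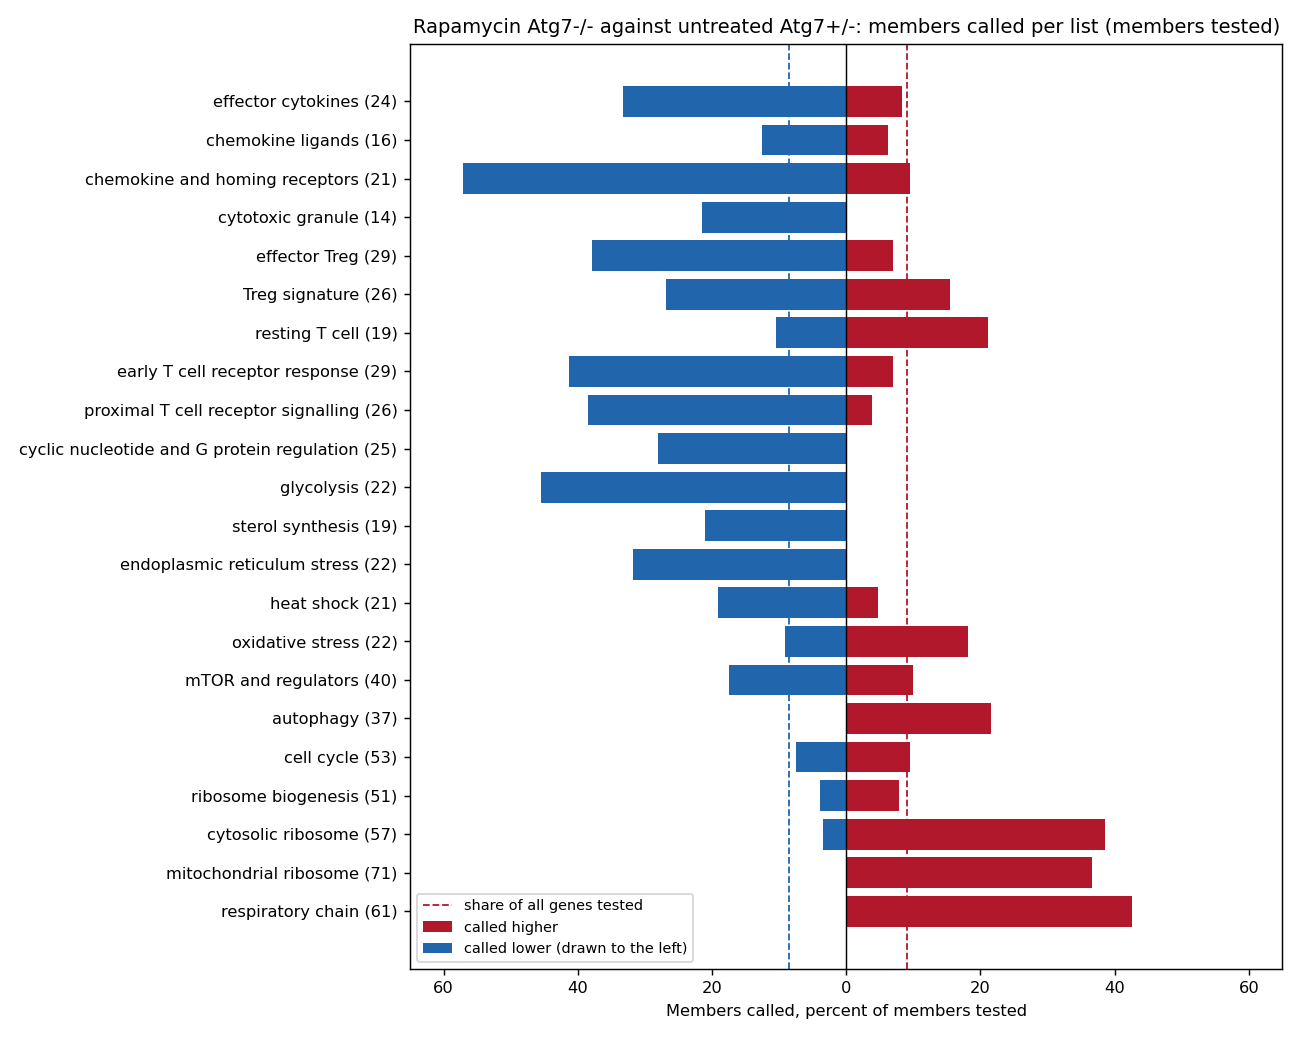
Share of the tested members of each of 22 gene lists (numbers tested in brackets) called higher (red, right) or lower (blue, left) in rapamycin Atg7-/- against untreated Atg7+/- cells, in percent; dashed lines mark the shares over all genes tested, 9.02% higher and 8.56% lower. Chemokine and homing receptors, glycolysis and T cell receptor lists lie to the left, and respiratory chain and ribosome lists to the right.

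Of the genes called on the mitochondrial lists, all were higher with all arrays. Of 61 respiratory chain genes 26 were higher and none lower (median 0.27), where 9.02% of all genes were higher and 8.56% lower. Of 71 mitochondrial ribosome genes 26 were higher and none lower (median 0.24). Without replicate 3 the counts were 17 and 0, and 23 and 1 (medians 0.23 and 0.19). Ndufb3, of respiratory complex I, read 7.41, 7.38, 7.86 and 7.35 against 6.40 to 6.63 in controls (1.99-fold, 1.00, SE 0.131, adjusted p = 7.95e-05). Ndufa2, Ndufa7 and Ndufa1, of the same complex, were 1.66-fold, 1.60-fold and 1.60-fold higher. Mrpl54, of the large mitochondrial ribosome subunit, read 8.77, 8.84, 9.21 and 8.87 against 7.98, 8.06, 8.18 and 7.90 (1.85-fold, 0.89, SE 0.113, adjusted p = 6.21e-05). Mrpl52, Mrpl47 and Mrpl14 were higher by 0.86, 0.84 and 0.74. Between the untreated genotypes, 2 of 61 and 4 of 71 were higher and 0 and 1 lower. Over all genes 1.75% were higher and 1.39% lower there. The list medians were already 0.15 and 0.22, beside 0.0222 over all genes. In Atg7-/- cells rapamycin raised 14 and 14 and lowered 0 and 3, where 8.83% of all genes were raised and 11.1% lowered. Medians of that step were 0.10 and 0.08, beside -0.0399 over all genes. Rapamycin in Atg7+/- cells raised 3 and 4 and lowered 2 and 3, where 6.03% of all genes were raised and 8.11% lowered. Between the genotypes under rapamycin, where 3.24% of all genes were called, 9 of 61 and 18 of 71 were higher and none lower. Without replicate 3 that fell to 1 of 61 and 4 of 71, while the higher calls over all genes fell from 320 to 115.

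Of 57 cytosolic ribosomal protein genes 22 were higher and 2 lower (median 0.21), and 15 and 1 without replicate 3. Quantile normalization of the arrays gave a median of 0.14 for this list. Rplp0, of the ribosomal stalk, read 10.96, 11.11, 11.03 and 11.03 against 10.07, 10.16, 10.37 and 10.14 (1.80-fold, 0.85, SE 0.10, adjusted p = 3.64e-05). Rpl27a and Rps7 were higher by 0.83 and 0.71, and Rps15 differed by -0.75 (adjusted p = 0.0272, lost without R2, R4, C1, C2 or C4, up to 0.0828). Ribosomal protein genes have many processed copies, so their probe sets are uncertain. Ribosome biogenesis genes, which build rather than form the ribosome, had fewer calls: of 51, 4 were higher, among them Nhp2 (0.42), Ltv1 (0.39) and Nop10 (0.35), and 2 lower, among them Nle1 (-0.42). Over all genes 9.02% were higher and 8.56% lower. Between the untreated genotypes 3 of the 51 were higher and none lower (median 0.20). Rapamycin raised none, and lowered 13 in Atg7-/- and 8 in Atg7+/- cells, where it lowered 11.1% and 8.11% of all genes.

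The glycolysis list leaned the other way, with none of 22 genes higher and 10 lower (median -0.27), also without replicate 3. Over all genes 9.02% were higher and 8.56% lower. Pkm, pyruvate kinase, read 9.70, 9.87, 10.06 and 10.11 against 10.56, 10.44, 10.40 and 10.39 (1.43-fold lower, -0.51, SE 0.0946, adjusted p = 0.00134). The lactate transporters Slc16a3 and Slc16a1 were 1.46-fold lower each (-0.55 and -0.54), and the enolase Eno2 was 1.55-fold lower (-0.64, adjusted p = 0.00316). Between the untreated genotypes 1 glycolysis gene was called, Hk2, which was higher and overshot (-0.31 after 0.49). Rapamycin in Atg7+/- cells lowered 12 of the list, where it lowered 8.11% of all genes. Sterol synthesis genes were lower in 4 of 19 and higher in none, including the regulator Srebf2 (-0.52, adjusted p = 0.00116) and Msmo1 (-0.85, adjusted p = 0.0164). Of 22 endoplasmic reticulum stress genes none was higher and 7 were lower, among them Herpud1 (-0.61, adjusted p = 0.00239), the chaperone calreticulin Calr (-0.46, adjusted p = 0.00118), the disulfide isomerase Pdia3 (-0.36, adjusted p = 0.0104) and the stress kinase Eif2ak3 (-0.38, adjusted p = 0.0427), whose call was lost without R1, R2, R4, C1, C2 or C3 (up to 0.121).

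**Figure D5:**
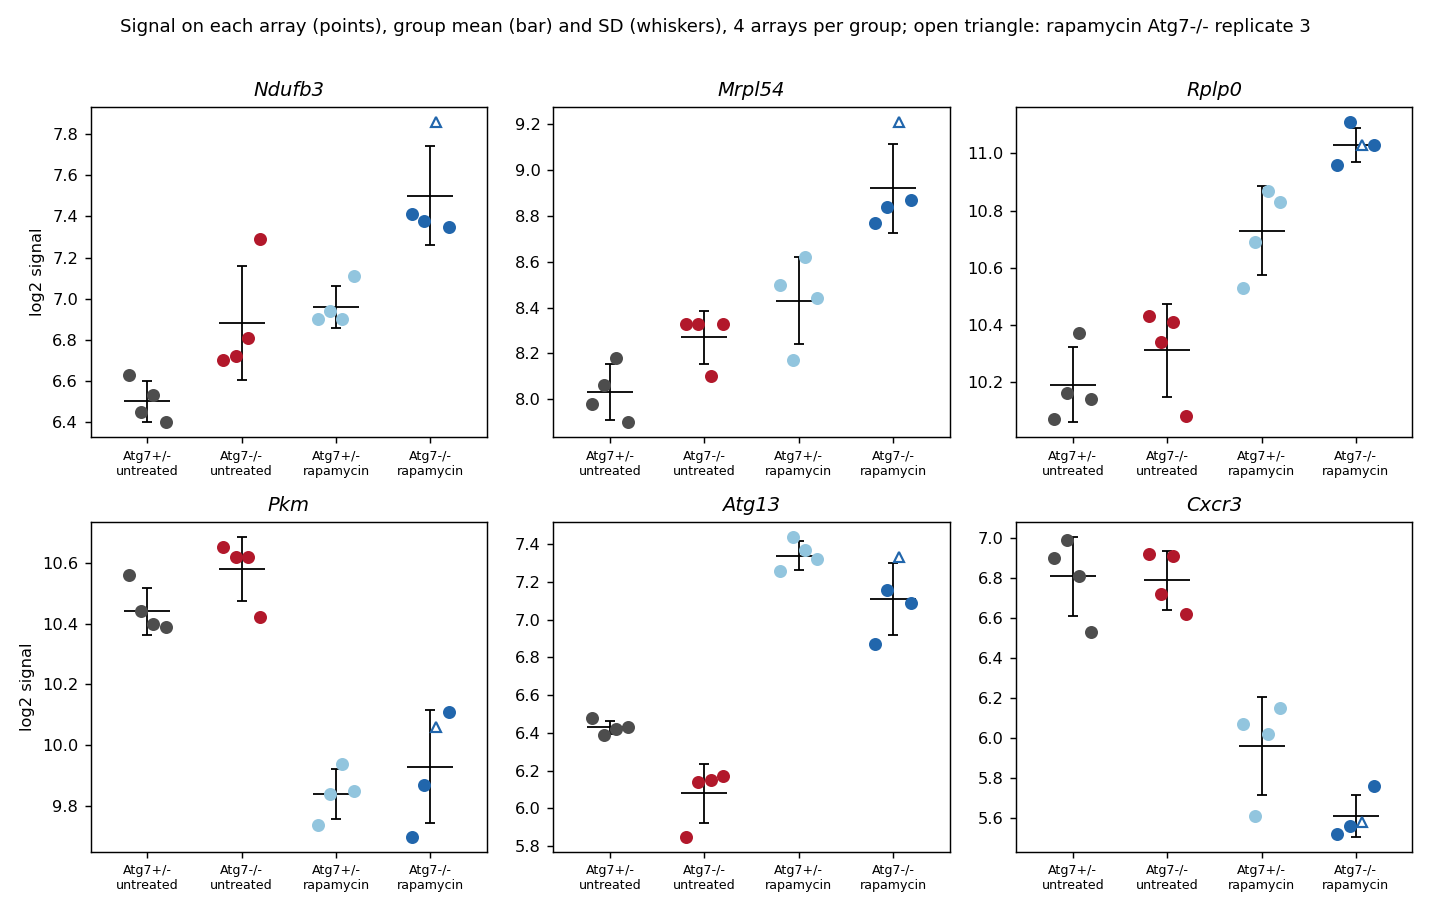
Log2 signal (y axis) of 6 genes on each of the 16 arrays in the 4 groups (x axis), with the group mean as a bar, the SD as whiskers and replicate 3 of the rapamycin Atg7-/- group as an open triangle. Ndufb3, Mrpl54, Rplp0 and Atg13 are higher and Pkm and Cxcr3 lower in all 4 rapamycin Atg7-/- arrays than in all 4 untreated Atg7+/- arrays.

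Of 37 autophagy genes 8 were higher and none lower (median 0.09), and 7 and 1 without replicate 3. Over all genes 9.02% were higher and 8.56% lower. Atg13, a partner of the ULK1 kinase, read 6.87, 7.16, 7.33 and 7.09 against 6.48, 6.39, 6.42 and 6.43 (1.60-fold, 0.68, SE 0.0988, adjusted p = 0.000176). The kinase Ulk2 and the complex member Atg101 were higher by 0.64 (adjusted p = 0.00375) and 0.51 (adjusted p = 0.0106), and Atg10, a conjugating enzyme that works with Atg7, by 0.60 (adjusted p = 0.00658). Rapamycin raised 9 of the list and lowered 1 in Atg7+/- cells, where it raised 6.03% and lowered 8.11% of all genes. In Atg7-/- cells it raised 15 and lowered none, where it raised 8.83% and lowered 11.1% of all genes. Among 40 mTOR pathway genes and regulators 4 were higher and 7 lower (median -0.03), beside 9.02% higher and 8.56% lower over all genes. Mapkap1, of mTOR complex 2, was higher (0.62, adjusted p = 6.1e-05), and the mTOR complex 1 inhibitors Ddit4 (-0.80, adjusted p = 0.0234) and Sesn3 (-0.65, adjusted p = 0.00492) and the arginine sensor Castor1 (-0.63, adjusted p = 0.0196) were lower. Ddit4 lost its call without R1, R4, C2 or C3 (up to 0.076) and Castor1 without R1 or C2 (up to 0.0569).

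No gene was called by limma for the difference between the rapamycin effect in Atg7-/- and in Atg7+/- cells, with 1052 genes at an unadjusted p under 0.05. Rapamycin called 3347 genes in Atg7-/- cells (20.0%) and 2370 in Atg7+/- cells (14.1%), and these counts do not show that the effects differ. Under rapamycin 543 genes (3.24%) were called between the genotypes, 320 higher and 223 lower in Atg7-/- cells, but these counts rested on single arrays. Without R3 287 were called, 115 higher and 172 lower, so that most were then lower. Without R4 269 were called, 145 higher and 124 lower, and without R2 789, 516 higher and 273 lower.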

How the data were processed

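RNA from sorted, stimulated Treg cells was measured on 16 Affymetrix mouse gene arrays, 4 in each of 4 groups taken from the sample titles, after amplification of nanogram amounts of RNA, per the labels' protocols. The authors deposited 1 table of log2 values of 41345 probe sets, between 1.4886 and 13.4975; the submitters' processing notes list RMA and Partek 6.6. No log base is stated there, and 2 was assumed from that method and range, and arrays give no read depth: their number limits the precision.

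A platform annotation table gave 23521 probe sets 1 gene symbol, 1814 several and 16010 none listed. The brightest probe set stood for each of 22180 genes, 1082 of which had more than 1. Genes whose highest group mean was at or below the 30th percentile, 3.549, were left out (5420 genes), which left 16760. limma 3.58.1 in R 4.3.3 fitted 1 mean per group over all 16 arrays, with 12 residual and 5.64 prior degrees of freedom. All adjusted p-values are limma's with Benjamini-Hochberg adjustment over 16760 genes, and called means an adjusted p under 0.05. Differences are log2 differences unless a fold is named, and the recovery margin of 1.5-fold is 0.585 on that scale. The steps were tested on simulated data.

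The comparison, the gene lists and the tests were chosen with earlier results of these data known. Named genes are Atg7, Foxp3 and Myc, the 10 that rose and 10 that fell most without overlap of arrays (predicted genes, receptor families and small RNAs left out), up to 4 called genes of each described list by size and up to 10 genes of each recovery class by their untreated genotype difference, plus genes given as context. Alternatives were quantile normalization, median centring, other filters, the mean of probe sets, trend with robust moderation, array weights, a replicate block, the 8 arrays alone, a stricter threshold, a 2-fold margin and each array left out in turn except those of rapamycin Atg7+/- cells.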

Additional observations from a re-analysis of the deposited data

Results flagged for a closer look

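In 286 sets of 4 arrays, from 143 named genes in both groups compared, 14 had 1 array far from the other 3. About 1 in 20 such sets is expected to be picked out by chance. Of the 14, 6 lay in replicate 3 of the rapamycin Atg7-/- group, the highest of its group each time: Hspa1b at 9.39 (next array 6.31), Hspa1a at 8.27 (5.37), Mrpl47 at 8.16 (7.62), Gsto1 at 7.94 (7.49), Ndufb3 at 7.86 (7.41) and Pdia3 at 9.95 (9.61). For Hspa1b that value exceeded every untreated control array.

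The other 8 lay in untreated controls. Control replicate 1 was lowest for Il4 at 6.11 (next 6.39) and Tk1 at 7.57 (7.93) and highest for Kif11 at 5.39 (5.10). Control replicate 2 was highest for Foxp3 at 11.32 (11.24) and H2ac15 at 8.39 (8.03) and lowest for Ccl3 at 6.66 (7.33). Control replicate 3 was lowest for Rrm2 at 4.99 (5.36) and highest for Gstt2 at 5.76 (5.56). The part of these arrays' quality or cell content in the values was not tested.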

How the results depend on the processing

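No named gene that was called was called in the opposite direction under any alternative run. Between 109 and 142 of the named genes kept their side of the threshold. Differences that were not called could change sign, as those of Themis and Ccl3 did when a single array was left out. With each array centred on its median, 318 genes were called between the untreated genotypes and 350 between the genotypes under rapamycin, and 127 were brought back, 102 left changed, 15 overshot and 39 near control. Array weights gave 974 calls between untreated genotypes, with 352 brought back, 309 left changed, 63 overshot and 211 near control. At an adjusted p under 0.01 the comparison had 1402 calls, 779 higher and 623 lower; the untreated genotypes had 161, rapamycin 1633 in Atg7-/- and 913 in Atg7+/- cells, and the genotypes under rapamycin 79, with 65 brought back, 44 left changed, 6 overshot and 22 near control. Between genotypes under rapamycin, the 50th percentile filter gave 820 and trend with robust moderation 886. Overshoot took 19 genes with no filter, and a 2-fold margin left 1 unresolved. The 8 arrays alone gave 2298 calls (1183 higher, 1115 lower).

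Leaving out 1 of the 8 arrays compared gave 2290 to 2934 calls, 1143 to 1494 higher and 1068 to 1548 lower. With 1 array of these or of untreated Atg7-/- left out (none of rapamycin Atg7+/-), the untreated genotypes had 284 to 694, rapamycin 2538 to 3419 in Atg7-/- and 1683 to 2781 in Atg7+/- cells, and the genotypes under rapamycin 269 to 789. Brought back ranged from 110 to 272, left changed from 98 to 225, overshot from 11 to 46, near control from 22 to 129 and unresolved from 17 to 53.

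Arrays with the same replicate number did not deviate together in the groups compared (r = -0.0829, -0.0348, 0.121 and -0.0713). Between the genotypes under rapamycin r was 0.24, 0.192, 0.358 and -0.0658, so 3 of 4 pairs exceeded 0.1; the block gave 592 calls there. The numbers were not taken to pair the samples, and for the comparison the replicate block gave 2989 calls (1515 higher, 1474 lower).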

Other observations

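Of 40 proteasome genes 8 were higher and 1 lower in rapamycin Atg7-/- than in untreated control cells, with a median of 0.02 on the log2 scale, and without replicate 3 the counts were 6 and 1. Of 24 genes of the pentose phosphate, serine and one-carbon pathways 5 were higher and 1 lower (median 0.11), also without replicate 3. Genes of the citric acid cycle and fatty acid oxidation had 7 higher and 1 lower of 34, but 4 and 4 without that array. Fatty acid synthesis had none of 13 higher and 3 lower (median -0.21), and 1 and 3 without it. These counts stand beside 9.02% higher and 8.56% lower over all genes tested.

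Among 22 inhibitory and costimulatory receptors 2 were higher and 5 lower (median -0.16). Tigit, an inhibitory receptor of Treg cells, was 1.38-fold lower (-0.46, SE 0.109, adjusted p = 0.00738), as it was after rapamycin in Atg7+/- cells (-0.48, adjusted p = 0.00779). Lag3, another inhibitory receptor, was higher in untreated Atg7-/- cells (0.47, adjusted p = 0.0375). After rapamycin it missed the threshold (0.32, adjusted p = 0.0757) and fell in the class near control with no called step, so a return was not shown. Fgl2, a secreted effector of Treg cells, was lower before and after rapamycin (-0.78 and -0.70, adjusted p = 0.000881 and 0.000376). The transcription factors Gata3, Tbx21 and Prdm1 were not called against untreated controls (-0.21, 0.16 and -0.22), and Prdm1 had been higher without rapamycin (0.68, adjusted p = 0.0141). Il10, an anti-inflammatory cytokine, was not called either (-0.22, SE 0.146, adjusted p = 0.319).

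Among 20 interferon-stimulated genes 1 was higher and 2 lower, among 29 amino acid response genes 1 and 4, among 26 lysosome genes 2 and 3, among 12 Bcl2 family genes 2 and 3, among 16 cell cycle inhibitors 1 and 3, and among 13 replication-dependent histone genes 2 and 0. These are small counts beside the same 9.02% and 8.56%. Without replicate 3 they were 0 and 3, 1 and 4, 1 and 6, 1 and 3, 0 and 3, and 2 and 1 in the same order.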
